A study of Chamaelirium luteum with 2 samples.

Results

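Inside the 8 listed centromere intervals of Cha. luteum, leaf chromatin carried 317 short accessible islands. An island is a peak of ATAC-seq signal whose summit, the point of highest signal, lay in one of the intervals on scaffolds 1, 3, 4, 5, 10, 12, 17 and 20. Peaks of the 2 libraries that overlapped by at least 1 bp were joined into 1 island. Replicate 1 gave 201 of its 39233 peaks to the islands and replicate 2 gave 240 of its 41385. Of the 317 islands, 124 (39.1%) held a peak of both replicates, 77 held a peak of replicate 1 only and 116 held a peak of replicate 2 only. This is a share of joined islands, and no such share was computed over all peaks. As shares of peaks, 61.7% in replicate 1 and 51.7% in replicate 2 were shared inside the intervals. Over the whole lists these shares were 82.2% and 77.9%. Every island of both replicates was made of exactly 1 peak of each, and no peak crossed an interval edge.

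Both libraries came from nuclei of fresh Cha. luteum leaves, with about 75000 nuclei in each reaction, and they are replicates 1 and 2 of 1 condition, with no treated and untreated plants to compare. All comparisons are therefore between places in the genome: centromere intervals against the arms of the same 8 scaffolds, and interval edges against the inner part. The assembled arms differ much in length between scaffolds, and each scaffold counts equally in the tests. The labels do not say which plants gave the replicates, so the spread between them may be technical. The peak names in the list of replicate 2 carry another code than its label, which was followed, and values are given for each replicate.

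A centromere is the stretch of a chromosome on which the kinetochore assembles, the protein structure that spindle fibres attach to. In most plants it is marked by CENH3, a centromere-specific form of histone H3, and it often rests on satellite DNA, short units repeated head to tail over long arrays. Satellite arrays are usually packed densely. ATAC-seq uses the Tn5 transposase, which cuts where DNA is not covered by nucleosomes, so a peak inside such an array marks a locally open spot. The intervals were set by CENH3-ChIPseq on flower tissue whereas the islands are from leaf, and they are Chama satellite arrays in the study's assembly. Reads that mapped to several places were removed before peak calling. Positions where repeats are too alike could then give no peak. The part of this removal in the number, place, width and local background of the islands was not tested.

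The peak lists do not give the number of reads, but summit height could be solved as a number of fragments from the fold and the p-value of each peak. All solutions (100%) were whole numbers within a relative tolerance of 0.0001, and no listed peak had fewer than 11 fragments. The lowest background that the caller used, its genome-wide level, was 3.38 fragments in replicate 1 and 3.18 in replicate 2. The sources used here do not say whether read pairs or single reads were stacked, and the word fragment is used for either.

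Islands occurred in all 8 intervals, at 2.44 to 4.28 per Mb. Scaffold 1 held 43 islands in its 15.3-Mb interval (27141008 to 42438856), 19 of them in both replicates. Scaffold 3 held 38 (14379053 to 25678443), with 13 in both, and scaffold 4 held 45 (23695211 to 35424698), with 20 in both. Scaffold 10 had the most islands, 46 (964644 to 13258378), and also the highest share in both replicates, 45.7%. Scaffold 5 held 35 islands (15525124 to 26162203) and had the lowest share, 25.7%, or 9 islands. Scaffold 12 held 40 (356741 to 9961965), with 12 in both replicates, and scaffold 20 held 41 (661293 to 10240432), with 17 in both. Scaffold 17 had the fewest islands, 29 (2024067 to 13887568), of which 13 were in both. Islands covered 0.0801% of the interval on scaffold 17 at the low end and 0.145% of that on scaffold 12 at the high end.

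**Figure D1:**
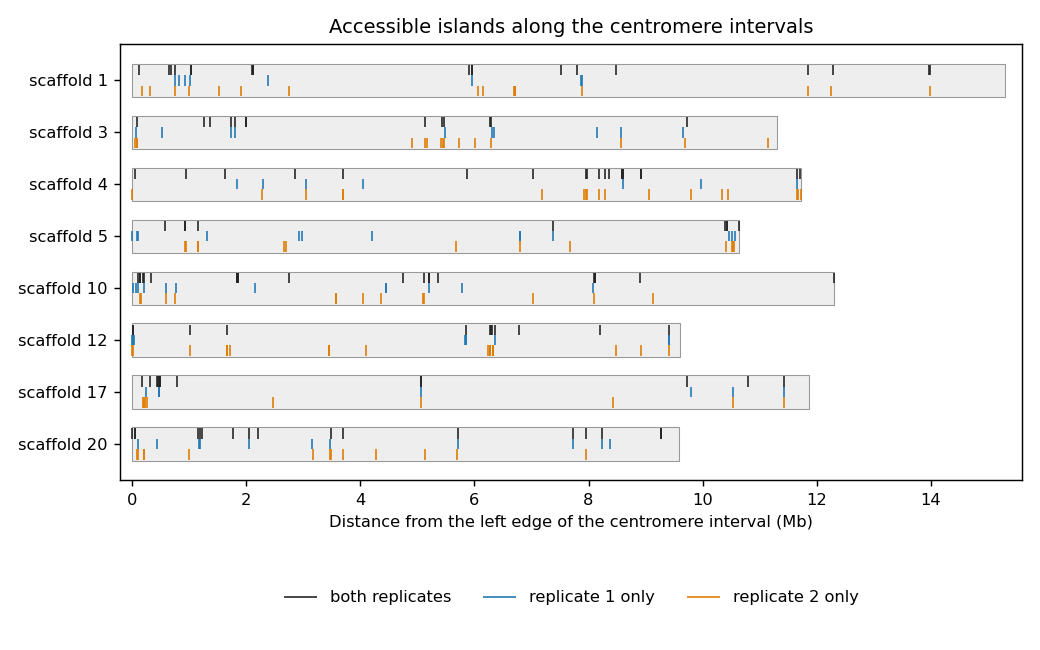
Each grey bar is 1 of the 8 centromere intervals, drawn from its left edge (x axis, distance in Mb), and each tick is an island, held by both replicates (black, upper row), by replicate 1 only (blue, middle row) or by replicate 2 only (orange, lower row). Of the 317 islands, 180 had another island within 10 kb and 137 had none. Some neighbours were parted by long empty stretches, such as the 3371 kb to the right of the island group near the middle of scaffold 17.

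Most islands were narrow and low. The 317 islands had a median width of 258 bp, with quartiles of 203 and 393 bp, between 178 bp for the narrowest and 1649 bp for the widest. The narrowest peak of replicate 1 was 179 bp and that of replicate 2 was 177 bp over all scaffolds, so the narrowest islands were at the limit of what was listed. In 200 islands (63.1%) the summit had fewer than 20 fragments. Islands of at least 500 bp numbered 41, and islands of at least 1 kb numbered 3, on scaffolds 3, 4 and 12.

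The widest island, on scaffold 3 (16372315 to 16373963), measured 1649 bp and had 88 fragments in replicate 1 and 105 in replicate 2. Its peaks were 1649 and 1575 bp wide in replicates 1 and 2, it lay 1993 kb from the nearer edge, and another island of both replicates began 0.34 kb to its right. The second widest, on scaffold 12 (7135403 to 7136598), reached 1196 bp with 20 fragments in replicate 1 and 24 in replicate 2. On scaffold 4 an island of 1097 bp (32616240 to 32617336) had 38 fragments in each replicate. All 3 were found in both replicates, and only the first of them was also among the 5 highest islands.

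In the other centromeres the widest islands were between 684 and 976 bp. They measured 935 bp on scaffold 1 (27824973 to 27825907), 848 bp on scaffold 20 (8899880 to 8900727), 779 bp on scaffold 17 (7089061 to 7089839) and 684 bp on scaffold 5 (25920021 to 25920704). On scaffolds 5, 10 and 20 the widest island was much wider in 1 replicate. Its peaks were 684 and 307 bp wide in replicates 1 and 2 on scaffold 5, and 226 and 642 bp on scaffold 20. On scaffold 10 (1101154 to 1102129, 976 bp) its peak measured 213 bp with 11 fragments in replicate 1 and 816 bp with 18 fragments in replicate 2, and the summits were 405 bp apart. All of these islands held a peak of both replicates.

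The highest island lay on scaffold 17, 2133 kb from the nearer edge (11754300 to 11754722). It had 172 fragments in replicate 1, a fold of 27.0 over the background, and 213 in replicate 2, a fold of 31.5. The second highest was on the same scaffold, 318 kb from the left edge (2341626 to 2342052), with 109 fragments in replicate 1 and 133 in replicate 2. The others of the 5 highest islands were the widest island of scaffold 3, an island on scaffold 1 (27783992 to 27784425) with 70 and 99 fragments in replicates 1 and 2, and an island on scaffold 5 (26160275 to 26160650) with 67 and 84. The scaffold 5 island lay only 1.75 kb from the right edge, and its summit was at the same base in both replicates. Within these 5 the 2 highest were not the widest, and 4 of the 5 measured 376 to 434 bp. All 5 were wider than the median island, at 258 bp. Over all centromere peaks width rose with height (means of the replicate medians). It was 224.5 bp at 11 to 14 fragments and 415 bp from 50 fragments. In the remaining centromeres the highest island of both replicates was much lower, with 43 and 65 fragments in replicates 1 and 2 on scaffold 12 (369331 to 370098), 38 in each on scaffold 4, 25 and 37 on scaffold 20 (667754 to 668523), and 33 and 23 on scaffold 10 (1186193 to 1186907).

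Fewer peaks were shared between the replicates in the centromeres than on the arms. Over the whole lists, overlap with the other replicate was found for 82.2% of replicate 1 peaks and 77.9% of replicate 2 peaks. Inside the intervals, the share was 61.7% in replicate 1 and 51.7% in replicate 2, against 81.3% and 75.9% on the arms of the same scaffolds. By scaffold, as the mean of the replicates, it was 56.2% in the centromere and 76.7% on the arms, a difference of -20.5 ± 9.59 percentage points (SD over 8 scaffolds). The share was lower in the centromere on 8 of 8 scaffolds, by differences between -36.5 on scaffold 5 and -9.68 on scaffold 20 (two-sided exact permutation test that flips the sign of each scaffold's difference, p = 0.00781, adjusted p = 0.0182 over 7 tests). The smallest p that 8 scaffolds can give is 0.00781, and the p-values rest on scaffolds of 1 assembly that share the 2 libraries, not on plants.

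Higher summits were shared more often in both places. Among peaks of 11 to 14 fragments, 27.6% were shared in the centromeres and 27.4% on the arms (means of 2 replicates). Among peaks of 15 to 19 fragments the share was 47.1% in the centromeres and 44.9% on the arms, and among those of 20 to 24 it was 63.6% in the centromeres and 63.9% on the arms. Among peaks of 25 to 29 fragments the share was 86.5% in the centromeres and 78.0% on the arms, higher in the centromeres in both replicates, over 25 centromere peaks of replicate 1 and 20 of replicate 2. Among peaks of 30 to 49 fragments it was 95% in the centromeres and 92.2% on the arms. From 50 fragments, all 6 centromere peaks of replicate 1 and all 7 of replicate 2 were shared, and 99.5% of the arm peaks. Centromere peaks were also lower, with a median of 18 fragments in replicate 1 and 19 in replicate 2, against 32 and 33 on the arms. Peaks under 20 fragments made up 57.2% ± 1.39 of the centromere peaks and 19.9% ± 0.0956 of the arm peaks (SD, n = 2 replicates).

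When arm peaks were weighted to the same summit heights as the centromere peaks, in bins of 5 fragments, the share was 56.2% in the centromere and 54.1% on the arms. The difference of 2.11 ± 7.56 percentage points (SD over 8 scaffolds) was positive on 5 scaffolds and negative on 3, and ranged between -10.7 on scaffold 5 and 11.2 on scaffold 10. It did not pass the test (exact two-sided sign-flip permutation test, p = 0.445, adjusted p = 0.623), so no difference was detectable once heights were matched, which does not show that the shares were equal.

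**Figure D2:**
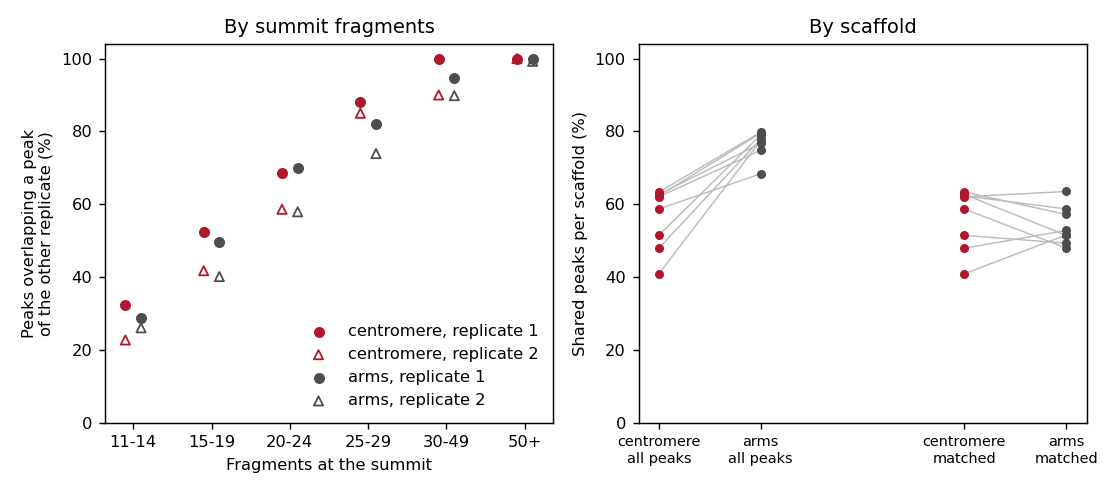
Left, percent of peaks shared with the other replicate (y axis) by fragments at the summit (x axis), in the centromeres (red) and on the arms (grey), for replicate 1 (filled circles) and replicate 2 (open triangles); right, the share per scaffold as the mean of the replicates, 1 line per scaffold, for all peaks and with arm peaks weighted to the summit heights of the centromere peaks. The share was lower in the centromere on 8 of 8 scaffolds for all peaks and on 3 of 8 after the weighting.

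Width was compared in the same way. The median width of a centromere peak was 261 bp in replicate 1 and 254 bp in replicate 2, against 368 and 361.5 bp on the arms. By scaffold the medians averaged 258 bp in the centromere and 357 bp on the arms, a difference of -99.2 ± 18.8 bp (SD over 8 scaffolds). Centromere peaks were narrower on 8 of 8 scaffolds, by differences between -129.5 and -79.2 bp (exact two-sided sign-flip permutation test, p = 0.00781, adjusted p = 0.0182). The comparison at matched heights used means in place of medians. At matched heights the mean width was 319 bp in the centromere and 317 bp on the arms. That difference, 1.95 ± 19.7 bp, was positive on 4 scaffolds and negative on 4 (exact two-sided sign-flip permutation test, p = 0.789, adjusted p = 0.789), with a range over scaffolds between -26.1 and 24.6 bp. Median widths, pooled over scaffolds, were lower in the centromeres at every height (means of the replicate medians, not tested). They were 250.75 bp against 277 bp on the arms at 20 to 24 fragments, and 353 against 379 bp at 30 to 49. The matched means thus do not show that widths were equal.

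The local background under the peaks was also lower in the centromeres. The background that the peak caller set for a peak was above the genome-wide level for 76 of 201 centromere peaks of replicate 1 (37.8%) and for 100 of 240 of replicate 2 (41.7%). On the arms it was above that level for 85.6% of the peaks of replicate 1 and 86.6% of those of replicate 2. As a mean of the replicates this was 39.7% ± 2.73 in the centromeres and 86.1% ± 0.702 on the arms (SD, n = 2), which is given without a test. The highest local background under a centromere peak was 9.52 fragments in replicate 1 and 11.1 in replicate 2, against 32.6 and 37.5 on the arms. Summit heights were not matched here. Peaks at the genome-wide level had a median of 17 fragments in the centromeres and 18 on the arms, in each replicate. Peaks above it had medians of 21 and 20 in replicates 1 and 2 in the centromeres, and 36 in each on the arms. The part of the removed multi-mapping reads was not tested.

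Islands of both replicates differed from those of 1 replicate in width and height, where a joined island is at least as wide as the wider of its peaks. The 124 islands of both replicates had a median width of 404 bp and a median of 22 fragments. The 193 islands of 1 replicate had a median width of 216 bp and a median of 16 fragments. Of the 24 islands with at least 30 fragments, 22 were in both replicates, and so were 34 of the 41 islands of at least 500 bp. Fewer than 20 fragments were found in 150 of the 193 islands of 1 replicate, and in 50 of the 124 of both.

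Where both replicates held an island, position and height could be compared pair by pair. The summits were 41.5 bp apart at the median over 124 pairs of peaks in the centromeres, and 37 bp apart over 10743 pairs on the arms. The overlap was 70.5% of the joint length at the median in the centromeres and 81.9% on the arms. The ratio of summit fragments, taken as an absolute log2 value, had a median of 0.22 in the centromeres and 0.23 on the arms. Replicate 2 was higher in 64 islands, replicate 1 in 48, and 12 were equal, against 6951, 3251 and 541 pairs on the arms. Across the 124 islands the log2 fragments of the replicates had a Pearson correlation of 0.868 and a Spearman correlation of 0.727, against 0.943 and 0.935 across the pairs on the arms. Heights were not matched for these pairs. Their median summits in replicates 1 and 2 had 21 and 22 fragments in the centromeres, and 38 and 41 on the arms. The part of this in the overlap and the correlations was not tested. All these values describe peaks that share the same 2 libraries.

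The 3 islands whose heights differed most between replicates were all of modest height. On scaffold 5 an island of 595 bp (22908989 to 22909583) had 32 fragments in replicate 1 and 19 in replicate 2, a log2 ratio of -0.75. On scaffold 10 an island of 393 bp (2829334 to 2829726) had 17 fragments in replicate 1 and 28 in replicate 2, a log2 ratio of 0.72. The third was the 976-bp island of scaffold 10 described above, at 0.71.

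**Figure D3:**
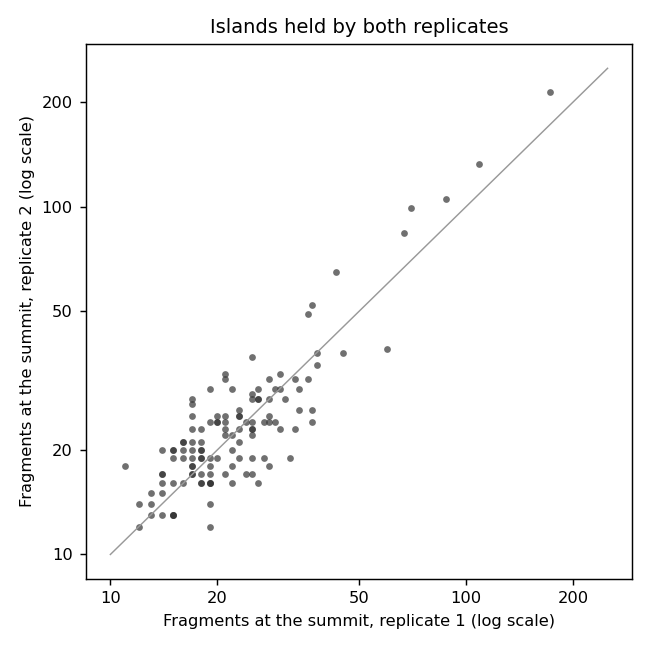
Each point is 1 of the 124 islands held by both replicates, placed by the fragments at its summit in replicate 1 (x axis) and replicate 2 (y axis), both on log scales, with the line of equality. Most points lie below 50 fragments, and the 5 highest islands lie above the line, up to 172 and 213 fragments.

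A few islands of 1 replicate were as high as those of both. The highest, on scaffold 12 (2017908 to 2018149), had 36 fragments in replicate 2 and no overlapping peak in replicate 1. Next came an island on scaffold 1 (38976447 to 38976673) with 30 fragments in replicate 2, one on scaffold 17 (2494509 to 2494706) with 29 in replicate 1, another on scaffold 1 (39380511 to 39380704) with 29 in replicate 2, and one on scaffold 4 (32294025 to 32294299) with 28 in replicate 1. These 5 measured 194 to 275 bp, against a median of 216 bp for all islands of 1 replicate. A missing peak is not a count of 0, since the lists hold only what passed the caller's threshold. For the 193 islands of 1 replicate, the nearest summit of the other replicate was 10.8 kb away at the median. It was within 10 kb for 92 of them and beyond 100 kb for 54.

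Islands were unevenly spaced. Over 309 pairs of neighbours the distance from the end of one island to the start of the next had a median of 33.5 kb and a mean of 289 kb. It was at most 1 kb for 47 pairs and at most 10 kb for 111. At the other end, 27 distances of 1 Mb or more made up 55.7% of the summed distance between neighbours. The median distance was shortest on scaffold 12, at 7.20 kb, and longest on scaffold 4, at 79.9 kb, whereas the mean was between 231 kb on scaffold 20 and 402 kb on scaffold 17.

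The closest neighbours were 0.06 kb apart on scaffold 1, a peak of replicate 1 only (35023954 to 35024134, 13 fragments) and a peak of replicate 2 only (35024195 to 35024397, 11 fragments). Of the 47 pairs within 1 kb, 8 joined 2 islands of both replicates and 29 joined an island of both with an island of 1 replicate. In 7 pairs the islands came from different single replicates, and in 3 from the same one. An island of both replicates beside an island of 1 replicate was thus the most frequent close pair. Among all islands 124 were of both replicates and 193 of 1, and no expected number of such pairs was computed.

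The longest distance between neighbours, 3371 kb, was on scaffold 17. It began at the innermost island of that centromere, 779 bp wide with 27 fragments in replicate 1 and 24 in replicate 2, and ended at a peak of replicate 2 only (10460388 to 10460848). Nearly as long were 3358 kb on scaffold 1 between 35618000 and 38976447, and 3163 kb on scaffold 10 between 10093482 and 13256548. Cut into windows of 1 Mb from the left edge, the 8 intervals gave 88 full windows, of which 24 (27.3%) held no island and 42 held no island of both replicates. The shorter rest at the right end of each interval was left out. On scaffold 5 it held the 11 islands within 500 kb of the right edge. The 24 windows with at least 5 islands held 193 islands. The fullest of the full windows, with 16 islands, was the first of scaffold 10, followed by the first of scaffold 17 with 15.

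**Figure D4:**
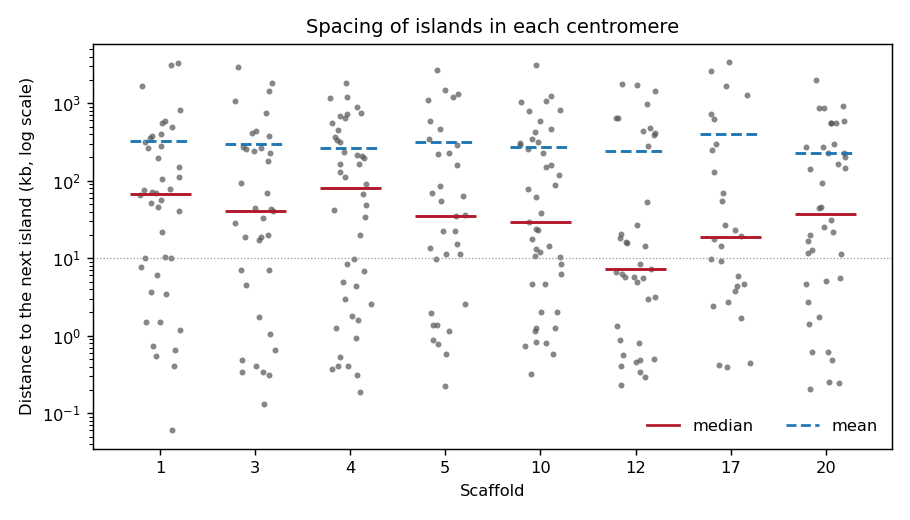
Distance in kb from each island to the next (y axis, log scale) in each of the 8 centromeres (x axis, by scaffold), 1 point per pair of neighbours, with the median as a red line, the mean as a dashed blue line and a dotted line at 10 kb. In every centromere the mean, 231 to 402 kb, lies above the median, 7.20 to 79.9 kb.

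Distances were more variable in the centromeres than on the arms. The coefficient of variation of the distances between successive summits of 1 replicate, their SD divided by their mean, averaged 1.76 in the centromeres and 1.35 on the arms. The difference was 0.408 ± 0.294 (SD over 8 scaffolds) and was positive on 7 of 8 scaffolds, with scaffold 4 at -0.141 (exact two-sided sign-flip permutation test, p = 0.0156, adjusted p = 0.0273). This call is fragile. It was lost in 12 of 17 alternatives. Those of them that left out 1 scaffold kept differences of 0.344 to 0.429, with fewer scaffolds to test (adjusted p = 0.0547, same exact test). With the edges moved 500 kb inward the difference itself fell to 0.0538 (adjusted p = 0.75 in the same exact test).

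With islands linked when they lay within 10 kb of each other, 180 of 317 (56.8%) belonged to one of 69 clusters. Clusters of 2 islands numbered 42 and clusters of at least 3 numbered 27, with 6 islands in the largest. They spanned 0.444 to 28.9 kb, with a median of 3.76 kb. Of the 69, 65 held peaks of both replicates and 54 held an island of both. The share of islands in clusters was 45.7% on scaffold 5 at the low end and 75% on scaffold 12 at the high end. It depends on the link distance, at 38.5% for 2 kb and 75.1% for 50 kb, and was 47.5% without replicate 1 and 46.3% without replicate 2. No such share was computed for the arms or over all peaks, so clustering cannot be called particular to the centromeres.

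The 3 clusters with the most islands lay on scaffolds 17, 12 and 4. That of scaffold 17 (2489897 to 2518842) held 6 islands over 28.9 kb, 466 kb from the left edge, with 4 islands of both replicates and 2 of replicate 1 only. Its highest island (2518107 to 2518842) had 37 fragments in replicate 1 and 52 in replicate 2. That of scaffold 12 (357476 to 378772) held 6 islands over 21.3 kb and began 0.886 kb from the left edge of its interval, with 2 islands of both replicates, 2 of replicate 1 only and 2 of replicate 2 only. That of scaffold 4 (32286764 to 32294299) was the most compact, with 5 islands in 7.54 kb, and lay 3131 kb from the nearer edge. Of these 5, 4 were in both replicates, with 18 to 30 fragments in replicate 1 and 20 to 33 in replicate 2. Large clusters thus occurred both at the edge and deep inside the intervals.

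Islands were more frequent near the edges of the intervals than farther inside. Within 500 kb of an edge there were 83 islands, 26.2% of all. By scaffold this was 10.4 islands per Mb near the edges and 2.80 per Mb farther inside, a difference of 7.57 ± 5.06 per Mb (SD over 8 scaffolds). It was positive on 8 of 8 scaffolds, between 0.202 on scaffold 1 and 15.9 on scaffold 17 (exact two-sided sign-flip permutation test, p = 0.00781, adjusted p = 0.0182). For the peaks of replicate 1 alone the difference was 5.14 per Mb (adjusted p = 0.0547, same exact test) and for those of replicate 2 alone 5.35 per Mb (adjusted p = 0.0137). It was 3.93 per Mb and no longer passed the exact test with the edges moved 100 kb inward (adjusted p = 0.246), so the call depended on the outermost 100 kb. With the list limited to a -log10 q of 5 or more it was 4.39 per Mb (adjusted p = 0.0182, exact test).

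In finer zones the number of islands per Mb was uneven within 250 kb of the edges. Within 25 kb there were 13 islands, or 32.5 per Mb, of which 6 lay on scaffold 12. Between 25 and 50 kb there were only 2 islands, or 5 per Mb, close to the number between 250 and 500 kb. Between 50 and 100 kb there were 21.2 per Mb, and between 100 and 250 kb 14.2 per Mb, with islands on 7 scaffolds. From 250 to 500 kb it was 4.25 per Mb, and 12 of those 17 islands lay on scaffold 17. Farther inside the number stayed low, at 2.5 per Mb from 500 kb to 1 Mb, 3.69 from 1 to 2 Mb, 2.84 from 2 to 4 Mb and 2.26 from 4 to 8 Mb.

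**Figure D5:**
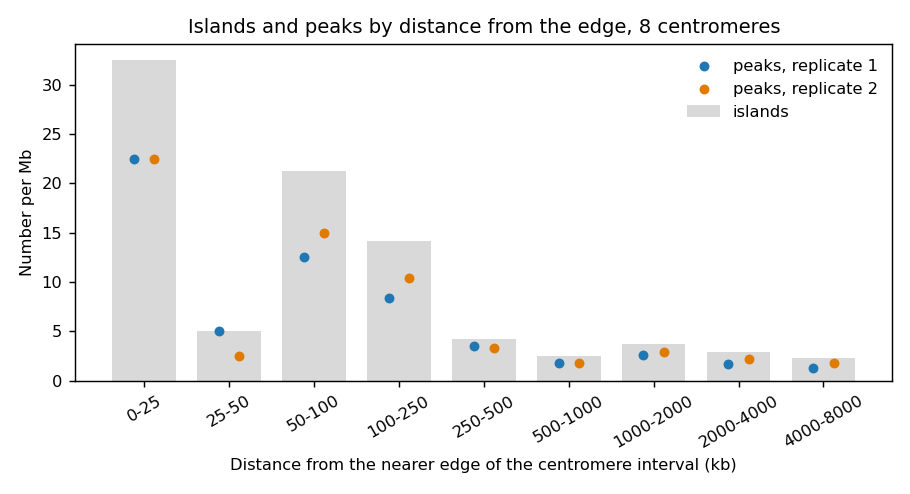
Islands per Mb (grey bars) and peaks per Mb of replicate 1 (blue) and replicate 2 (orange) by distance from the nearer interval edge in kb (x axis), summed over the 8 centromeres. Islands number 32.5 per Mb in the outer 25 kb and 2.26 to 3.69 per Mb beyond 500 kb.

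The edges were not alike. Islands within 500 kb of the left edge outnumbered those within 500 kb of the right edge on scaffold 17 (14 left, 3 right), 10 (12 and 1), 20 (9 and 2), 12 (7 and 4), 3 (5 and 1) and 1 (3 and 0). On scaffolds 5 (3 and 11) and 4 (2 and 6) the right edge had more. With each interval cut into 10 equal pieces, the leftmost pieces held 78 islands and the rightmost 33, and the pieces between them 14 to 41. Left and right follow the coordinates of each scaffold, so the pooled counts give no common direction of the centromeres. To the left of the interval, scaffolds 10, 12, 17 and 20 had only 0.965, 0.357, 2.02 and 0.661 Mb of sequence. To the right, scaffolds 17 and 20 also had little, 0.562 and 1.49 Mb. The part of these short flanks in the counts was not tested. On scaffold 1 the island nearest to the right edge was still 1322 kb away (41117201 to 41117544), with 21 fragments in replicate 1 and 17 in replicate 2.

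The peaks just inside and just outside the edges are set side by side without a test. Over the 16 edges, the nearest peak inside lay 0.886 to 1322 kb from the edge, with a median of 38.5 kb, and the nearest outside 1.32 to 163 kb, with a median of 22.2 kb. The peaks inside had a median width of 233.5 bp and a median of 19 fragments, and those outside 279.5 bp and 20.5 fragments. On 7 edges the first peak inside was within 10 kb, and on 3 edges the first outside. Among the 16 peaks inside, 7 were shared between replicates, and among the 16 outside 5. On the whole arms of these scaffolds 81.3% of replicate 1 peaks and 75.9% of replicate 2 peaks were shared, so few shared peaks were also found just outside the intervals.

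Islands nearest to an edge differed in height. On scaffold 1 the island nearest to the left edge (27261787 to 27262097), 121 kb inside, had 36 fragments in replicate 1 and 32 in replicate 2. On scaffold 12 the first island (357476 to 357712) had 21 fragments in replicate 2 only. On scaffold 4 both outermost islands, 2.36 kb from the left edge (23697515 to 23697712) and 7.20 kb from the right edge (35417336 to 35417540), had 16 fragments in replicate 2 only. On scaffold 10 the island nearest to the right edge (13256548 to 13256879, 1.65 kb away) was held by both replicates, with 21 fragments in replicate 1 and 23 in replicate 2. The island nearest to the left edge of scaffold 20 was also the highest shared island of its centromere, and that nearest to the right edge of scaffold 5 was among the 5 highest of all.

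Islands also occurred near the middle of every interval. The innermost island of scaffold 1 (34659815 to 34660204) lay 7519 kb from the nearer edge and had 12 fragments in each replicate, close to the least listed. The innermost island of scaffold 4 (29565379 to 29565716), 5859 kb from the edge, was higher, with 38 fragments in replicate 1 and 35 in replicate 2, and its nearest neighbour was 1155 kb away. On scaffolds 3, 5, 12 and 20 the innermost islands were held by replicate 2 only, with 17, 14, 18 and 14 fragments, and on scaffold 10 by replicate 1 only, with 16. No difference in sharing between edge and inner islands was detectable. By scaffold the share held by both replicates was 36.2% within 500 kb of an edge and 38.4% farther inside, a difference of -2.21 ± 10.9 percentage points that did not pass the test (exact two-sided sign-flip permutation test, 4 scaffolds positive and 4 negative, p = 0.602, adjusted p = 0.702). It ranged between -20.8 and 11.4 over scaffolds.

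For comparison, scaffold 9 has no listed centromere but a stretch poor in peaks, 150001 to 15850000, which was chosen on these data for its low density, so its values are given without a test. It held 96 peaks in replicate 1 and 111 in replicate 2. Of these, 81.2% in replicate 1 and 71.2% in replicate 2 were shared, against 61.7% and 51.7% in the centromere intervals. The median width there was 275.5 bp in replicate 1 and 278 bp in replicate 2, and the median height 22 and 21 fragments. Its distances between summits had a coefficient of variation of 1.46 in replicate 1 and 1.65 in replicate 2. In width and height the peaks of this stretch lay between those of the centromere intervals and those of the arms, whereas their sharing was closer to that of the arms.

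No genome sequence or gene annotation was used here, so which islands lie on satellite repeats, on genes or on other sequence was not examined.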

How the data were processed

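ATAC-seq was done on nuclei of fresh Cha. luteum leaves (2 libraries, paired-end, 151 cycles per end). Before deposit, the authors used fastp 0.20.0 for trimming and BWA-MEM 0.7.17 for alignment to their own assembly. SAMtools 1.16.1 then took out duplicates and reads of mapping quality under 30, and MACS 3.0.0 called peaks in each library at a q threshold of 0.01. The deposited peak lists give position, summit, an integer score, the fold (a ratio over background), and -log10 p and q. The score was not used. The sources used here do not state read shifting, controls or organelle filters, and signal tracks made with deepTools 3.5.1 were not used here. Coordinates follow the authors' scaffolds, counted from 1. Interval edges were read from the study's supplementary material.

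Summit fragments n and background b were solved from the deposited fold, (n + 1)/(b + 1), and -log10 p, a Poisson tail above n. Peaks counted at their summit. The arms are all parts of the same 8 scaffolds outside the intervals. To the left and right of the interval they measured 27.1 and 25.8 Mb on scaffold 1. They were only 2.02 and 0.562 Mb on scaffold 17, and 0.661 and 1.49 Mb on scaffold 20. For matched comparisons arm peaks were weighted within bins of 5 fragments, open from 50, to the centromere peaks. Differences per scaffold, as means of the 2 libraries, were tested with exact two-sided sign-flip permutation tests and Benjamini-Hochberg adjustment over 7 tests, called at 0.05. Code was tested on simulated data. The regions named are, per centromere, the widest island, the shared island with most fragments, the innermost island and those nearest to the 2 edges. Over all centromeres they are the 3 largest clusters, the 5 highest islands of both replicates and the 5 highest of 1, the closest and farthest neighbours and the 3 islands with the largest ratio between replicates. The long empty stretches of scaffolds 1 and 10, the fullest windows and the highest island of each large cluster were named after their values were seen. Alternatives were a stricter q, 50% overlap, the peak midpoint, edges moved inward, each library or scaffold left out, arm peaks within 2 Mb, and other zones, bins and link distances. Members, lists and tests were chosen with earlier results of these data known. Scripts ran in Python 3.11.15 with scipy 1.17.1, pandas 2.3.3, matplotlib 3.10.9 and numpy 2.4.6.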

Additional observations from a re-analysis of the deposited data

How the results depend on the processing

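The lower sharing and the smaller width of centromere peaks kept their direction and call in all 16 alternatives each, with differences between -24.8 and -16.5 percentage points and between -117.7 and -81.2 bp. The smallest differences, -16.5 percentage points and -81.2 bp, were those against arm peaks within 2 Mb of an interval edge. The number of islands moved to 206 when the lists were limited to a -log10 q of 5 or more (called strict below), and was 201 to 240 without 1 replicate. The percent of islands in both replicates was 28.2 when 50% of both peaks had to overlap, and 51.7 to 61.7 without 1 replicate, where it becomes the share of 1 list. The percent of islands in clusters was 52.9 (strict), 62.2 (50% overlap), 58.1 (edges moved inward by 500 kb, and equally with only islands beyond 500 kb, chosen after seeing the data), 58.0, 58.2 and 54.2 without scaffolds 1, 5 and 12, 38.5 and 75.1 for links of 2 and 50 kb, and 46.3 to 47.5 without 1 replicate. The excess near the edges lost its call with edges moved inward by 100 kb (3.93 per Mb, adjusted p = 0.246, exact permutation test) and was 5.14 to 5.35 per Mb without 1 replicate, uncalled without replicate 2. Its other 14 alternatives kept the call.

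The excess in the coefficient of variation lost its call at 0.163 (strict), 0.342 and 0.0538 (edges moved inward by 100 and 500 kb), and 0.109 (500 kb inward with arm peaks within 2 Mb, chosen after seeing the data). It was 0.373 to 0.443 without 1 replicate, uncalled without replicate 2. It also lost the call without scaffold 1 (0.382), 3 (0.412), 5 (0.428), 10 (0.388), 12 (0.397), 17 (0.344) or 20 (0.429). There the 7 scaffolds left still held scaffold 4, whose difference was negative. The exact permutation test gave p = 0.03125 in each of these (adjusted p = 0.0547), so their loss came with little change in the difference. The 3 differences that did not pass the test changed sign in places, all still uncalled. The matched sharing became -0.245 in the strict lists. The matched width became -5.03 there, -0.552, -0.0745, -0.405 and -1.30 without scaffolds 3, 4, 10 and 12, and -0.704 to 4.60 bp without 1 replicate. The sharing near edges became 0.513 with 50% overlap, 0.451 without scaffold 3, and -1.58 to 1.22 without 1 replicate. For these the cause was not tested. No paired analysis was possible because there is 1 group only, so replicate numbers pair no libraries across groups. The tests over scaffolds pair places on the same scaffold. Summits below the 11 fragments of the lowest listed peak cannot be seen.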
